A study of Mus musculus with 16 samples.

Results

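Malat1, Neat1, Meg3, Miat and Snhg11, long noncoding RNAs that are abundant in nuclei of the nervous system, were followed across RNA sequencing of mouse spinal cord. They were taken by gene symbol, and all 5 were found among the 24411 genes of the deposited tables. All 5 were also among the 16091 genes tested, which had a group mean above 1 TPM, a level scaled for transcript length and library, in at least 1 group. The cords came from 16 female C57BL/6J mice. In the SCI + Atorvastatin group (n = 7) and the SCI + Vehicle group (n = 7), mice that were 12 wk old in the labels had a lateral compression of the cord with a gap of 0.25 mm at the lower thoracic level. From 2 wk after injury they received daily atorvastatin, a statin that blocks HMG-CoA reductase, at 10 mg/kg, or its vehicle of DMSO, polyethylene glycol, Tween and saline, for 4 wk. The Uninjured Control group (n = 2) had neither compression nor injections. RNA was taken from a 5 mm segment around the injury, or the same level in Uninjured Control mice, 6 wk after injury. The labels give 12 wk for the Uninjured Control mice as well, but do not say at what age they were collected. By the published methods they were younger than the injured mice at collection. Injury, surgery, injections and age therefore cannot be told apart in any comparison with the Uninjured Control group.

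Malat1 and Neat1 are neighbours in the genome and mark different bodies of the nucleus. Malat1 collects in nuclear speckles, which store splicing factors, and Neat1 is the scaffold on which paraspeckles form. Malat1 and the long form of Neat1 do not end in a normal poly(A) tail: RNase P cuts a tRNA-like RNA from the 3′ end, and the new end folds back into a triple helix that protects it. Meg3 is transcribed from the maternal copy of the imprinted Dlk1-Dio3 domain, Miat (Gomafu) is a neuronal RNA that binds splicing factors through repeats of a branch-point-like motif, and Snhg11 is a host gene of small nucleolar RNAs that is transcribed in neurons. In bulk tissue, fewer cells of a type and less RNA per cell cannot be told apart.

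The libraries held 14823292 to 25579826 counts on genes. The Uninjured Control libraries stood apart from the others. Genes with a count numbered 12356 and 12732 in them, and 16399 to 19338 in the injured mice. In both comparisons 10 of 10 liver transcripts were higher in the Uninjured Control libraries than in the injured group. The summed level of these transcripts was 1251 and 7475 TPM in Uninjured Control mice against at most 16.0 TPM in any injured mouse. Fold changes of the 5 RNAs against the Uninjured Control group, and medians or counts of the related gene lists, are therefore also given without each of its libraries. Both comparisons with that group share the same 2 mice. Rpph1, the RNA part of RNase P, took up between 15868 and 115239 TPM in single libraries, which moves TPM of all other genes, and fold changes below are from counts.

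Malat1 lies on the minus strand at chr19:5795690-5802672 of GRCm38, in GENCODE vM21 mainly as 1 exon of 6983 nt, and Neat1 lies 22035 bp away on the same strand at chr19:5824708-5845478, with a long transcript of 20771 nt and a short one of 3004 nt. The ends of both RNAs are printed because they carry the feature these transcripts share. The Malat1 window is the 100 nt just before the tRNA-like RNA, at chr19:5795982-5796081, and the Neat1 window is the last 100 nt of its long transcript, at chr19:5824708-5824807. Capitals mark runs of 11 or more letters found in both windows, and sequence is from GENCODE vM21, 5′ to 3′ on the minus strand.
Malat1 3′ end: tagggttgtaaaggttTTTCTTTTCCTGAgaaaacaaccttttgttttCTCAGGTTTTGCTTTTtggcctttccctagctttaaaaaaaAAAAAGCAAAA
Neat1 3′ end: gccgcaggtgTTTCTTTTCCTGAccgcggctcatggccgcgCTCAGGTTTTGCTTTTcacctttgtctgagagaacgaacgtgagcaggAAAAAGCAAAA
mascRNA: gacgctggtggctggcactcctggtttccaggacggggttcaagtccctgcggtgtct
The shared letters were 2 U-rich runs of 13 and 16 nt and the A-rich last 11 nt, in the same order in both RNAs. Of 8956 lincRNA transcripts of at least 200 nt in the annotation, 2 held all 3 runs, 1 each of Malat1 and Neat1. The third line is the RNA cut from Malat1 (mascRNA, 58 nt, chr19:5795924-5795981 in RefSeq), which has no row of its own in the tables.

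Miat lies on the minus strand at chr5:112213228-112229395. Its transcript Miat-201 of 8758 nt holds the motif TACTAAC 6 times, all in exon 7 of 7, in 2 clusters of 3. These windows are shown because no other gene among the 8956 lincRNA transcripts reached 6 copies, and 3.08% of those transcripts held the motif at all. Capitals mark the motif, on the transcript strand only.
Miat, chr5:112217305-112217464: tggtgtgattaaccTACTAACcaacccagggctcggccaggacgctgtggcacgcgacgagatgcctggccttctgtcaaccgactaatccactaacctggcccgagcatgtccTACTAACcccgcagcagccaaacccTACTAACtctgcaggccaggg
Miat, chr5:112216748-112216816: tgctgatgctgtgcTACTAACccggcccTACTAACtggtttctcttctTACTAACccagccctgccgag
The longest transcripts of Malat1, Meg3 and Snhg11 had 0 copies of this motif and that of Neat1 had 1.

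Meg3 lies on the plus strand at chr12:109541001-109571726 and Snhg11 on the plus strand at chr2:158375638-158386145, where GENCODE calls it protein coding and RefSeq long noncoding. RefSeq promoter windows (GRCm38.p6, 250 bases before to 50 after the start) were found for Malat1, Meg3, Miat and Snhg11. They were searched on both strands for TGACGT, the core of the site bound by CREB and ATF factors, which is held by 7.51% of all 32851 windows. The Malat1 window and the first Meg3 window held it, and those of Miat and Snhg11 did not. Capitals mark TGACGT or its reverse complement.
Malat1 promoter, chr19:5802623-5802922: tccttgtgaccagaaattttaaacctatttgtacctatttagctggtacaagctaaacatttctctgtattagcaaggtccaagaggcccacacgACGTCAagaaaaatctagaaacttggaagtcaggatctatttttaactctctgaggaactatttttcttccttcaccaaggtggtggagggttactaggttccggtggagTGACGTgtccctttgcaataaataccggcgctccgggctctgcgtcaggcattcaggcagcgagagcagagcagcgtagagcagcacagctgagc
Meg3 promoter, chr12:109540746-109541045: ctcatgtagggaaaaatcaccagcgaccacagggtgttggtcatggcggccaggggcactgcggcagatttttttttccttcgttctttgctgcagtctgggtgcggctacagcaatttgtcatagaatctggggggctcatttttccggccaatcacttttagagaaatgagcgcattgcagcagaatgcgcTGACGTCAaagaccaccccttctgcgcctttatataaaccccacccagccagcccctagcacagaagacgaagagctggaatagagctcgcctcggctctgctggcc
In Meg3 the letters form the full palindrome TGACGTCA, held by 1.79% of windows, in which 2 copies of the motif overlap. In Malat1 the 2 copies were apart.

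Per length, the order of the 5 RNAs was the same in 16 of 16 mice: Malat1 was highest, followed by Meg3, Neat1, Snhg11 and Miat. By TPM, Malat1 was between the 4th and the 8th gene of all genes in the injured mice and the 18th and 89th in Uninjured Control mice. In SCI + Atorvastatin mice, the TPM of Malat1 was 10.3-fold that of Meg3, Meg3 was 1.75-fold Neat1, Neat1 was 1.52-fold Snhg11 and Snhg11 was 4.37-fold Miat. In SCI + Vehicle mice the same steps were 8.74-fold, 2.11-fold, 1.21-fold and 4.40-fold. Each step had 1 direction in 7 of 7 mice of its group (exact sign-flip permutation test, p = 0.0156, the smallest that 7 mice allow, and 0.0156 after Benjamini-Hochberg adjustment over the 8 steps). The order tested was taken from the same mice, and it rests on the length used for each RNA. In share of all counts with vehicle, Snhg11 had a mean of 0.0789% and Neat1 a mean of 0.0667%. The closest neighbours were Neat1 and Snhg11 with vehicle, where the smallest difference in a mouse was 0.036 on the log2 scale. Together the 5 RNAs made up 2.01% to 3.18% of all counts with atorvastatin and 1.61% to 3.14% with vehicle. They made up 0.515% (95% Wilson interval 0.512% to 0.518%) and 1.12% (1.11% to 1.12%) in the Uninjured Control mice, and these intervals cover counting error only.

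**Figure D1:**
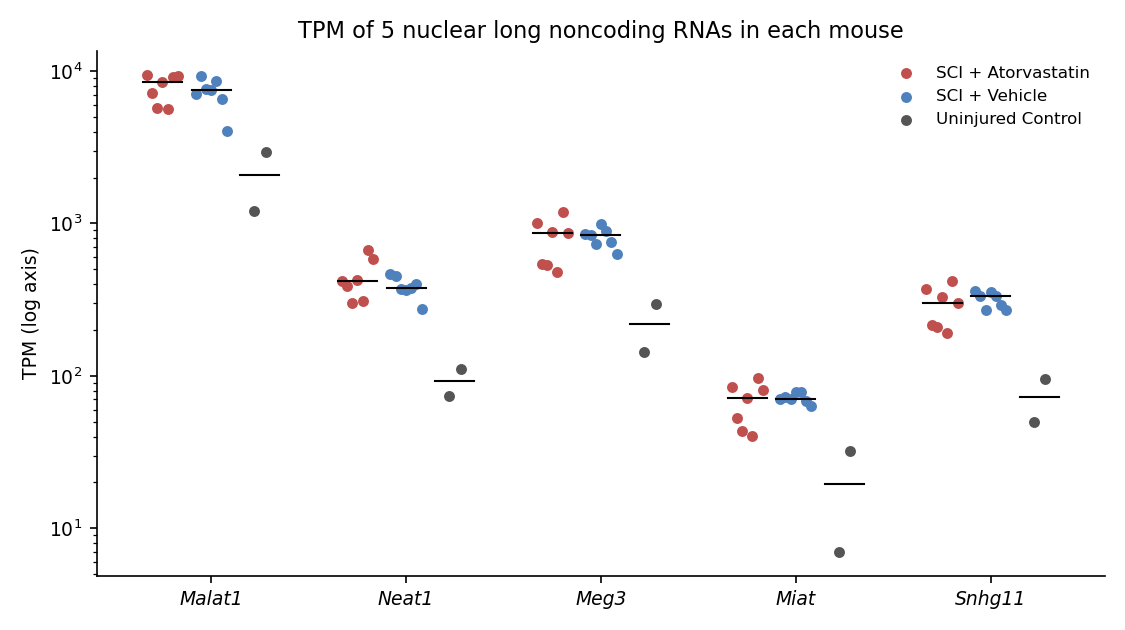
TPM of each RNA in each mouse on a log axis, with the groups in colour and a black line at each group's median. Every injured mouse lies above both Uninjured Control mice for all 5 RNAs, and the 5 atorvastatin and 5 vehicle sets overlap.

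Malat1 rose in both groups of injured mice. Its TPM ran from 4036 to 9315 (median 7488) in SCI + Vehicle mice and from 5614 to 9465 (median 8422) in SCI + Atorvastatin mice, while the Uninjured Control mice had 1207 and 2930. All injured mice were above both Uninjured Control mice. The log2 fold change was 1.59 (SE 0.329, adjusted p = 0.00484, edgeR) with vehicle and 1.72 (SE 0.301, adjusted p = 0.00141, edgeR) with atorvastatin. SCI + Vehicle replicate 7 was the lowest injured mouse, 1.33-fold above the higher Uninjured Control mouse in normalized CPM (counts scaled for depth).

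From counts, Neat1 had the largest fold change of the 5 RNAs in both comparisons. From log2(TPM + 1) with vehicle (limma) its change was 2.07, below 2.17 for Snhg11 and 2.15 for Miat. With atorvastatin it was again the largest, at 2.22. Its TPM ran from 275 to 463 (median 375) with vehicle and from 298 to 670 (median 416) with atorvastatin, while the Uninjured Control mice had 73.5 and 111. The log2 fold change was 2.29 (SE 0.249, adjusted p = 0.000156, edgeR) with vehicle and 2.44 (SE 0.298, adjusted p = 0.000185, edgeR) with atorvastatin. The lowest injured mouse of each group was 2.87-fold and 3.29-fold above the higher Uninjured Control mouse in normalized CPM, the widest gaps among the 5 RNAs. In TPM with vehicle this gap was 2.48-fold for Neat1 and 2.80-fold for Snhg11.

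Meg3 ran from 634 to 985 TPM (median 845) with vehicle and from 480 to 1187 TPM (median 862) with atorvastatin, while the Uninjured Control mice had 143 and 298 TPM. No injured mouse overlapped with them. The log2 fold change was 1.58 (SE 0.246, adjusted p = 0.00105, edgeR) with vehicle and 1.54 (SE 0.370, adjusted p = 0.00805, edgeR) with atorvastatin.

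Snhg11 ran from 268 to 362 TPM (median 334) with vehicle and from 192 to 419 TPM (median 301) with atorvastatin, while the Uninjured Control mice had 50.1 and 95.8 TPM. The log2 fold change was 1.81 (SE 0.191, adjusted p = 0.000141, edgeR) with vehicle and 1.69 (SE 0.290, adjusted p = 0.00125, edgeR) with atorvastatin. As for Meg3, the atorvastatin mice covered a wider range than the vehicle mice on both sides.

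Miat was the least abundant of the 5 and the one on which the Uninjured Control mice differed most. Its TPM ran from 63.1 to 78.8 (median 70.5) with vehicle and from 40.1 to 96.6 (median 72.1) with atorvastatin, against 7.01 and 32.0 in Uninjured Control replicates 1 and 2. Those values rest on 651 and 3267 counts. In normalized CPM, replicate 2 was 4.53-fold replicate 1, and the lowest atorvastatin mouse was 1.01-fold replicate 2. The log2 fold change was 1.44 (SE 0.416, adjusted p = 0.0246, edgeR) with vehicle, which passed the test, and 1.37 (SE 0.502, adjusted p = 0.0526, edgeR) with atorvastatin, which did not.

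A gene was called at an absolute log2 fold change above 0.322 (a change of 25%) and an adjusted p below 0.05. By this rule 5 of the 5 RNAs were higher in SCI + Vehicle than in Uninjured Control mice, where 19.9% of all genes tested were called higher, 9.91% lower and 29.8% in either direction. In SCI + Atorvastatin mice 4 of 5 were higher, where 24.9% of all genes were called higher, 14% lower and 38.9% in either direction. For all 5 RNAs the groups did not overlap in normalized CPM in either comparison, which held for 24.8% of all genes with vehicle and 29.8% with atorvastatin in the higher direction and 10.7% and 14.2% in the lower. For each RNA an exact two-sided permutation test gave p = 0.0278, the smallest that 7 against 2 mice allow. The median log2 fold change of the 5 RNAs was 1.59 with vehicle and 1.69 with atorvastatin, beside 0.17 and 0.21 over all genes tested. Of the genes tested, 77.2% to 82.0% had a lower fold change than each of the 5 with vehicle and 75.8% to 82.1% with atorvastatin. Of the 11126 genes with counts in both Uninjured Control mice, whose median was -0.04 and -0.03, 93.4% to 98.5% were lower.

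**Figure D2:**
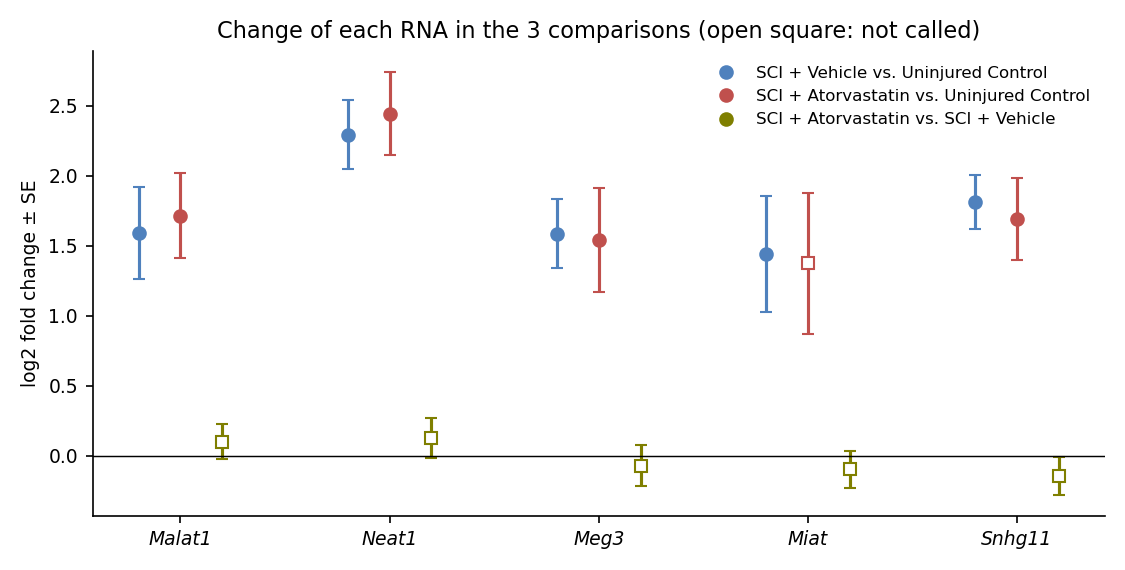
Log2 fold change with its standard error (edgeR) for each RNA in the 3 comparisons, where filled circles were called and open squares were not. The values against Uninjured Control mice lie between 1.37 and 2.44, and those between the treatments lie between -0.14 and 0.13.

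**Figure D3:**
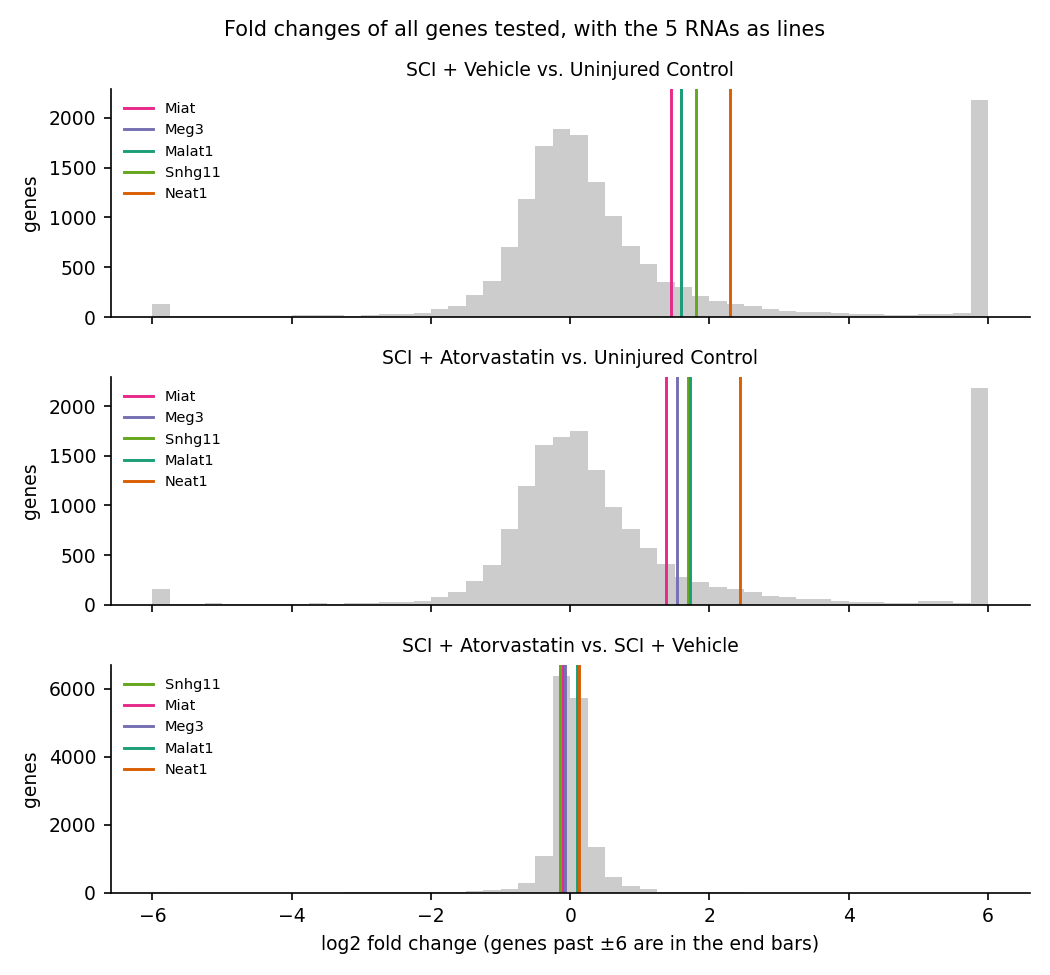
Histogram of log2 fold changes of all 16091 genes tested in the 3 comparisons, in bins of 0.25, with coloured lines at the 5 RNAs. The bars at the ends collect genes past 6 in either direction, among them many of the 2433 genes with no count in either Uninjured Control mouse, and the 5 RNAs lie to the right of the main peak in the upper panels and inside it in the lowest.

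The Uninjured Control mice set the size of these changes. Without replicate 1, which had the lower level of all 5 RNAs, the log2 fold changes fell to between 0.74 (Miat) and 2.10 (Neat1) with vehicle and between 0.66 (Miat) and 2.25 (Neat1) with atorvastatin, and without replicate 2 they were between 2.03 (Snhg11) and 2.91 (Miat) and between 1.90 (Snhg11) and 2.83 (Miat). With vehicle Malat1 was 1.12 without replicate 1 and 2.29 without replicate 2, and Meg3 was 1.17 and 2.17. With atorvastatin Meg3 was 1.13 and 2.11. Miat was called with atorvastatin when replicate 2 was left out (adjusted p = 2.39e-05, edgeR) and not when replicate 1 was (adjusted p = 0.083). In a fit that weights each group by its own spread (limma's voom with group quality weights), the directions held but none of the 5 RNAs was called in either comparison, with adjusted p of 0.0641 to 0.395 with vehicle and 0.205 to 0.471 with atorvastatin. That fit called 0.814% of all genes with vehicle and 0.907% with atorvastatin. Unadjusted p in it was below 0.05 for all 5 RNAs with vehicle and for Malat1 and Neat1 with atorvastatin. Of all 16091 genes, 1380 with vehicle and 1807 with atorvastatin were below 0.05 in that fit.

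Between the treatments, none of the 5 RNAs was called. The log2 fold change of SCI + Atorvastatin over SCI + Vehicle was 0.10 (SE 0.125) for Malat1, 0.13 (SE 0.143) for Neat1, -0.07 (SE 0.144) for Meg3, -0.10 (SE 0.132) for Miat and -0.14 (SE 0.133) for Snhg11. The unadjusted p of edgeR was 0.290 to 0.628, so 0 of 5 were past 0.05 and 0 of 5 past the limit of 0.001 for a call, by edgeR and by DESeq2 and limma alike, where 0.106% of all genes tested were called, 0.087% higher and 0.0186% lower with atorvastatin. The groups overlapped in normalized CPM for every RNA, where 0.0559% of all genes were higher and 0.0311% lower without overlap, with 1 to 3 atorvastatin mice above the highest vehicle mouse.

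Ratios of counts within a library do not depend on how libraries are scaled. Neat1 had 2.88 to 4.01 counts per 100 counts of Malat1 with atorvastatin (median 3.17) and 2.75 to 3.68 with vehicle (median 3.52), against 2.83 and 1.68 in Uninjured Control replicates 1 and 2. The atorvastatin mice were all above both Uninjured Control mice, while the lowest vehicle mouse was not. The mean log2 ratio was higher by 0.60 with vehicle (exact permutation test, two-sided, p = 0.0556) and 0.61 with atorvastatin (p = 0.0278, exact permutation test, the smallest possible), and adjusted over the 12 ratios compared both p were 0.333. Meg3 had 12.3 to 21.2 counts per 100 counts of Malat1 with atorvastatin and 14.7 to 25.6 with vehicle, around the 17.7 and 19.9 of the Uninjured Control mice.

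Miat had 6.26 to 7.39 counts per 100 of Meg3 with atorvastatin and 6.14 to 7.47 with vehicle, while the Uninjured Control mice had 4.04 and 9.15, 1 below and 1 above every injured mouse. Snhg11 had 18.8 to 21.8 and 19.9 to 24.3 counts per 100 of Meg3 in the injured groups and 23.5 and 15.7 in Uninjured Control replicates 1 and 2. None of the 12 ratio comparisons passed at an adjusted p of 0.05 by the exact permutation test, and 1 had an unadjusted p below 0.05, that of Neat1 over Malat1 with atorvastatin.

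The deposited TPM and counts also carry a length: for a gene, the count divided by the TPM is in proportion to the length used for it, as far as both values rest on the same reads. How the counts were made is not given in the sources used here, and whether they do was not tested. Set to the 6983 nt of Malat1 in each library, the implied length of Neat1 was 3721 to 5030 nt with vehicle (median 4171) and 3807 to 4576 nt with atorvastatin (median 4177), and 3240 and 3097 nt in the Uninjured Control mice. All injured mice were above both Uninjured Control mice. The share of all genes with groups apart in this value is not given here, and a shift between the transcripts of Neat1 was not tested. Not every value can be the length of an annotated transcript: the longest of Miat has 9163 nt and the longest of Snhg11 5864 nt in GENCODE vM21. Miat went the other way, with 8380 to 9119 nt in injured mice and 9638 and 10314 nt in Uninjured Control mice. Meg3 had 11132 to 11501 nt against 11718 and 12119 nt, and Snhg11 had 6133 to 6338 nt against 7856 and 5931 nt. In the scaled log2 ratio of count to TPM, Neat1 was higher by 0.38 with vehicle and 0.35 with atorvastatin than in Uninjured Control mice, and Miat was lower, at -0.25 and -0.23. Each of these had p = 0.0278 in the exact permutation test, the smallest possible with 7 against 2 mice, and 0.0595 after adjustment over 15 comparisons, so that none passed. Between the treatments no RNA differed by more than 0.034 on this scale (exact permutation test, p of 0.267 to 0.948).

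**Figure D4:**
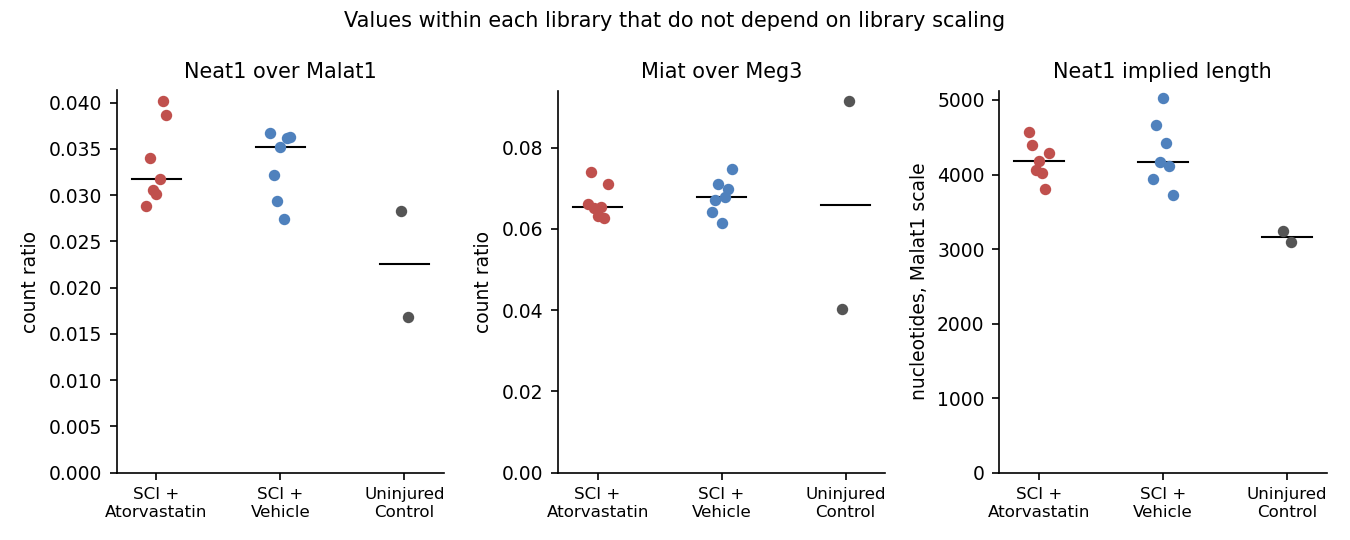
Counts of Neat1 per count of Malat1, counts of Miat per count of Meg3 and the implied length of Neat1 in nucleotides, each with 1 point per mouse, a line at the group median and an axis from 0. Both injured groups lie above the Uninjured Control mice in implied length (3721 to 5030 against 3097 and 3240 nt), and the Uninjured Control mice lie on both sides of the injured mice for Miat over Meg3.

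Among the 14 injured mice, the 5 RNAs varied together, but many other genes varied more closely with Malat1 than Meg3, Miat and Snhg11 did. After the mean of each treatment group was removed, log2 normalized CPM correlated positively in all 10 pairs, which share library, scaling and tissue piece. Meg3 and Miat had Pearson r = 0.97 (permutation p = 1e-05, the smallest that 100000 permutations can give) and Spearman rho = 0.98 (p = 1e-05, permutation test), and r = 0.94 without the 2 mice farthest from the median of Meg3. Meg3 and Snhg11 had r = 0.96 (permutation p = 3e-05) and rho = 0.93 (permutation p = 0.00015), with r = 0.93 without the 2 farthest mice. Miat and Snhg11 had r = 0.91 (permutation p = 0.00011) and rho = 0.94 (permutation p = 2e-05), with r = 0.85 without them. Adjusted over the 10 pairs, these 3 had permutation p of 0.0001 to 0.000367 for r.

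Malat1 and Neat1 had r = 0.85 (permutation p = 0.00052, adjusted 0.0013) and rho = 0.69 (permutation p = 0.0112, adjusted 0.0129), and r = 0.74 without the 2 farthest mice. The 6 pairs across the 2 sets had r of 0.59 to 0.76 and rho of 0.64 to 0.71, with adjusted permutation p for r of 0.00164 to 0.0231, and r of 0.58 to 0.78 without the 2 farthest mice. The smallest was Malat1 with Snhg11. Whether r differs between pairs was not tested. Within the treatment groups r ran from 0.75 to 0.99 in the atorvastatin mice, and from 0.33 (Malat1 with Snhg11, exact permutation p = 0.458) to 0.98 (Meg3 with Miat, exact permutation p = 0.000397) in the vehicle mice. SCI + Vehicle replicate 7 had the lowest Malat1 of the injured mice, -0.70 from its group mean on the log2 scale, beside -0.23 for Meg3 and -0.09 for Miat.

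The level of cell type markers was set beside this variation after the values were seen. For summed neuron markers over the 14 mice r was -0.03 with Meg3, 0.06 with Miat and -0.03 with Snhg11 (permutation p of 0.771 to 0.913, rho of 0.07, 0.10 and -0.04 with permutation p of 0.698 to 0.895, and r of 0.24, 0.24 and 0.15 without the 2 farthest mice). With Malat1 and Neat1 r was -0.52 and -0.52 (permutation p of 0.106 and 0.047), and 0.29 and -0.12 without those mice. Summed oligodendrocyte precursor markers had negative r with all 5 RNAs, from -0.25 (Meg3) to -0.55 (Neat1) with permutation p of 0.053 to 0.431. Without the 2 farthest mice these r were -0.73 to -0.87. For summed oligodendrocyte markers r was -0.68 with Malat1 and -0.62 with Neat1 (permutation p of 0.0517 and 0.02). There rho was -0.07 and -0.44 (permutation p of 0.809 and 0.122), and r without the 2 farthest mice was -0.36 and -0.47. For the number of genes detected in a library r was 0.61 with Malat1 and 0.65 with Neat1 (permutation p of 0.0529 and 0.0124, rho of 0.66 and 0.72 with permutation p of 0.017 and 0.00796, and r of 0.62 and 0.61 without the 2 farthest mice). Over all 70 such relations of the 5 RNAs, with 11 marker lists, Rpph1, total counts and genes detected, the lowest adjusted permutation p was 0.371 for r and 0.277 for rho.

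**Figure D5:**
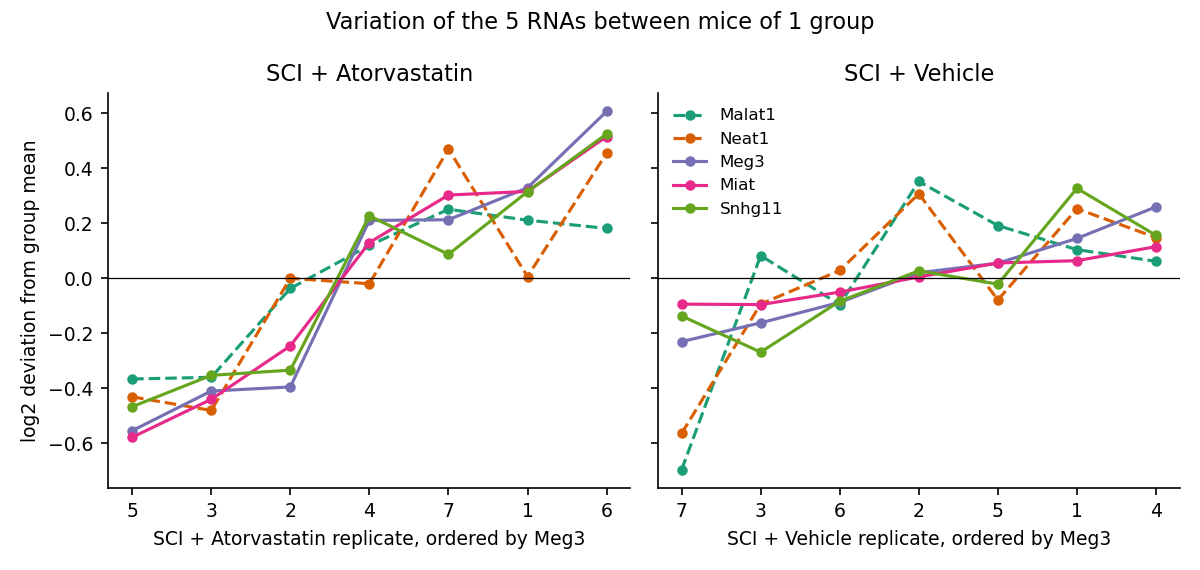
Deviation of each RNA from its group mean in log2 normalized CPM, for the 7 mice of each treatment group ordered by Meg3, with Malat1 and Neat1 as dashed lines and Meg3, Miat and Snhg11 as solid lines. The solid lines run close together in both groups, and the atorvastatin mice spread further (Meg3 from -0.55 to 0.61) than the vehicle mice (Meg3 from -0.23 to 0.26).

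The spread within the treatment groups was also compared. The mean absolute deviation of Miat from the group median was 0.343 with atorvastatin and 0.068 with vehicle in log2 normalized CPM (exact permutation test, two-sided, p = 0.00466, and 0.0233 after adjustment over the 5 RNAs). That of Meg3 was 0.359 and 0.134 (exact permutation p = 0.039, adjusted 0.0976) and that of Snhg11 was 0.318 and 0.143 (exact permutation p = 0.0659, adjusted 0.11). For Neat1 it was 0.266 and 0.207 and for Malat1 0.201 and 0.197. In the atorvastatin group replicates 2, 3 and 5 were below the mean of the group for Meg3 and Miat and the other 4 above it. The difference for Miat was between 0.21 and 0.33 when any 1 mouse was left out. Its adjusted p was above 0.05, so that it was no longer past the test, each time a vehicle mouse was left out.

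The genes whose pattern over the 14 injured mice was most like each RNA are given as a description, among the 13999 others with a mean of at least 50 counts in these mice. Miat (r = 0.97) and Snhg11 (r = 0.96) ranked first and second for Meg3, followed by Snrnp70 (r = 0.95), the 70K protein of the U1 splicing particle, Dock9 (r = 0.92), an activator of Cdc42, and Tsc1 (r = 0.92), a brake on mTORC1. Meg3 ranked first for both Miat and Snhg11. For Miat, Syne1 (r = 0.95), a protein that ties the nucleus to the cytoskeleton, Snrnp70 (r = 0.92), Snhg11 (r = 0.91) and Tsc1 (r = 0.91) followed, and for Snhg11, Dzip1l (r = 0.92), Miat (r = 0.91), Ralgps1 (r = 0.91) and 2410089E03Rik (r = 0.91). At the other end stood Stard7 (r = -0.92) and Vkorc1 (r = -0.88) for Meg3, Stard7 (r = -0.91) and Zfp72 (r = -0.89) for Miat, and Bsg (r = -0.90) and Dctn4 (r = -0.88) for Snhg11.

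For Malat1 the most alike were Cdk5rap2 (r = 0.94), a centrosome protein, Baz2b (r = 0.92), a bromodomain protein, Clip1 (r = 0.91), Hoxa6 (r = 0.91) and Tnrc6a (r = 0.91), a partner of Argonaute in microRNA silencing. The least alike were Pla2g16 (r = -0.91) and the glycolytic enzyme Tpi1 (r = -0.91). For Neat1, genes among the most alike were Fnbp4 (r = 0.92), Lrrc56 (r = 0.91), Spaca6 (r = 0.91) and Vasn (r = 0.90), with Cab39 (r = -0.90) and Ywhae (r = -0.89), a 14-3-3 protein, at the other end. Malat1 ranked 31st for Neat1, and Neat1 ranked 41st for Malat1. Meg3, Miat and Snhg11 ranked 503rd, 580th and 933rd for Malat1, and 146th, 140th and 289th for Neat1. The median r over all genes was -0.01 for Malat1, Neat1 and Miat and -0.02 for Meg3 and Snhg11, and 95% of genes had an r below 0.551 to 0.629, depending on the RNA.

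Genes for protein partners of these RNAs were taken from lists, and their counts are read beside the 19.9% of all genes called higher with vehicle and 24.9% with atorvastatin against the Uninjured Control group. Of 16 nuclear speckle and SR splicing proteins, 7 were called higher with vehicle and 8 with atorvastatin, none lower, with a median log2 fold change of 0.54 and 0.58 beside 0.17 and 0.21 over all genes. Without Uninjured Control replicate 1 the medians were 0.23 and 0.31 beside 0.34 and 0.37 over all genes. Without replicate 2 they were 0.71 and 0.70 beside 0.31 and 0.33 over all genes. Son, a core protein of speckles, rose by 0.96 (SE 0.112, adjusted p = 0.000223, edgeR) with vehicle and 1.06 (SE 0.0928, adjusted p = 3.45e-05, edgeR) with atorvastatin, and by 0.91 to 1.11 with either Uninjured Control mouse left out. Srrm2, the other core speckle protein, rose by 0.65 and 0.70 (adjusted p = 0.00437 and 0.0123, edgeR), and by 0.46 to 0.93 with either mouse left out. The splicing factor Srsf5 rose by 0.60 and 0.65 (adjusted p = 0.0353 and 0.0123, edgeR), but was not called in either comparison without replicate 1 (adjusted p = 0.174 and 0.0524). Sf3b1, a part of the U2 splicing particle, rose by 0.73 and 0.78 (adjusted p = 0.00715 and 0.00153, edgeR), and by 0.46 to 1.11 with either Uninjured Control mouse left out.

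Of 16 paraspeckle proteins, 4 rose and 2 fell with vehicle and 5 rose and 2 fell with atorvastatin, with a median of 0.13 in both, so that the share called higher was near that of all genes. Without Uninjured Control replicate 1 the medians were 0.13 and 0.19, and without replicate 2 they were 0.35 and 0.28. Hnrnpk, the most abundant of them, had a log2 fold change of -0.11 and 0.01 and was not called. Sfpq, which binds Neat1 to form paraspeckles, rose by 0.66 and 0.71 (adjusted p = 0.0113 and 0.000614, edgeR), and was not called with vehicle without replicate 1 (0.51, adjusted p = 0.053). Tardbp, which encodes TDP-43, rose by 0.87 and 0.81 (adjusted p = 0.00252 and 0.000343, edgeR), and Cpsf7, a cleavage factor of mRNA 3′ ends, rose by 0.99 and 1.13 (adjusted p = 0.00314 and 0.0003, edgeR).

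For the 3′ ends printed above, 3 of 11 proteins of RNase P and the tRNA 3′ end nuclease Elac2 were called higher in each comparison, near the share of all genes, with a median of 0.06 with vehicle and -0.29 with atorvastatin. Without Uninjured Control replicate 1 the medians were 0.60 and 0.48, and without replicate 2 they were 0.50 and 0.77. Pop4 rose by 1.83 and 1.88 (adjusted p = 0.00398 and 0.00103, edgeR), and Rpp21 had 0.06 and -0.31 and was not called. Of 7 genes for m6A methylation and for binding the triple helix, 1 was called higher with vehicle and 3 with atorvastatin (medians 0.40 and 0.46). Without Uninjured Control replicate 1 the medians were 0.31 and 0.42 beside 0.34 and 0.37 over all genes. Without replicate 2 they were 0.55 and 0.65 beside 0.31 and 0.33 over all genes. Rbm15, which guides the m6A methyltransferase, rose in both by 1.14 and 1.21 (adjusted p = 0.00777 and 0.000481, edgeR).

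Of 5 genes tested in the Dlk1-Dio3 domain around Meg3, none was called higher, 1 fell with vehicle and 2 fell with atorvastatin. The median log2 fold change of the 5 was 0.50 with vehicle and 0.38 with atorvastatin. Without Uninjured Control replicate 1 it was 0.13 and 0.01, and without replicate 2 it was 0.74 and 0.55. Rian, a noncoding RNA from the same maternal strand, had 106 ± 8.62 TPM (SD, n = 7) with vehicle and 101 ± 13.4 TPM (SD, n = 7) with atorvastatin, with 38.3 and 102 TPM in the Uninjured Control libraries. The log2 fold changes of Rian were 0.50 (SE 0.212, adjusted p = 0.0987, edgeR) and 0.38 (SE 0.192, adjusted p = 0.143, edgeR). They turned on the Uninjured Control mouse: without replicate 2 they were 1.01 with vehicle and 0.88 with atorvastatin, and without replicate 1 they were 0.13 and 0.01. Dlk1, expressed from the paternal copy, fell by 1.16 on the log2 scale (SE 0.388, adjusted p = 0.0451, edgeR) with vehicle and fell by 1.36 (SE 0.235, adjusted p = 0.00127, edgeR) with atorvastatin, and was not called with vehicle without replicate 2 (-0.85, adjusted p = 0.149). Begain had -0.15 with vehicle, not called, and fell by 0.56 with atorvastatin (adjusted p = 0.0387, edgeR), which was not called without replicate 1 (-0.46, adjusted p = 0.0796). The difference between Meg3 and its neighbours was not tested.

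Of 3 small nuclear and RNase P RNAs tested, none was called with vehicle, and with atorvastatin Rpph1 fell by 1.02 (adjusted p = 0.00834, edgeR). The median log2 fold change of the 3 was -1.01 with vehicle and -1.02 with atorvastatin. Without Uninjured Control replicate 1 it was 0.56 and 0.92, and without replicate 2 it was -1.20 and -1.21. Of 18 other long noncoding RNAs, 9 rose and 1 fell with vehicle and 8 rose and 1 fell with atorvastatin, with medians of 1.27 and 1.21, or 1.15 and 1.11 with the 5 genes that had no count in either Uninjured Control mouse set to the bound that 3 counts allow. With either Uninjured Control mouse left out, 9 to 12 of 18 were called higher, where 32.6% to 40.6% of all genes were. Xist, the RNA that coats the inactive X chromosome, rose by 1.79 (SE 0.38, adjusted p = 0.00556, edgeR) and 1.97 (SE 0.354, adjusted p = 0.0016, edgeR). Its counts were 1656 in replicate 1 and 5933 in replicate 2, and its fold change was 1.18 and 1.36 without replicate 1 and 2.87 and 3.05 without replicate 2. The imprinted Peg13 fell by 0.62 and fell by 0.70 (adjusted p = 0.00736 and 0.00171, edgeR), and was not called with vehicle without replicate 1 (-0.39, adjusted p = 0.0809). Of 12 other host genes of small nucleolar RNAs, 4 rose and 2 fell in each comparison (medians 1.35 and 1.33, the same with 3 genes without counts in Uninjured Control mice at their bound), and 5 to 7 were called higher with either mouse left out. Snhg20 rose by 1.81 and 1.57 (adjusted p = 0.0135 and 0.00317, edgeR), while Snhg12 fell by 1.19 and fell by 1.24 (adjusted p = 0.0179 and 0.0165, edgeR).

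Markers of several cell types moved with the groups. Of all genes tested, 19.9% were called higher and 9.91% lower with vehicle, and 24.9% and 14% with atorvastatin, against Uninjured Control mice. Of 12 microglia or macrophage markers, 10 rose in each comparison, with a summed level of 4194 to 7167 TPM in injured mice and 384 and 569 TPM in Uninjured Control mice. Of 18 neuron markers, 12 fell with vehicle and 16 with atorvastatin, with a summed level of 8238 to 13805 TPM in injured mice and 13634 and 16621 TPM in Uninjured Control mice. Astrocyte markers summed to 9576 to 12041 TPM in injured and 5042 and 6205 TPM in Uninjured Control mice, and oligodendrocyte markers to 14252 to 20195 and 13602 and 19264 TPM. Much of the astrocyte sum was Gfap, at a mean of 6640 TPM with vehicle, 7010 TPM with atorvastatin and 1340 and 2085 TPM in Uninjured Control mice. Of 10 astrocyte markers, 5 rose and 1 fell with vehicle and 5 rose and 2 fell with atorvastatin. Their median log2 fold changes were 0.17 and 0.25, beside 0.17 and 0.21 over all genes. Of 12 oligodendrocyte markers, 1 rose and 2 fell with vehicle and 1 rose and 4 fell with atorvastatin. The medians of this list were -0.23 and -0.26. They turned on the Uninjured Control mouse: without replicate 1 they were -0.47 and -0.40, and without replicate 2 they were 0.02 and 0.02. No neuron, astrocyte or oligodendrocyte marker was at 0 in an Uninjured Control mouse, and 1 and 3 of the microglia or macrophage markers were at 0 in replicates 1 and 2. Of 8 fibroblast markers, none was called with vehicle and 6 rose with atorvastatin against Uninjured Control mice, with medians of 1.16 and 2.05. Between the treatments 8 of 8 had a higher level with atorvastatin (median 0.85), none of them called, and their summed level was 668 to 1431 TPM with atorvastatin, 126 to 898 TPM with vehicle and 193 and 234 TPM in Uninjured Control mice. Of 8 skeletal muscle markers 8 were also higher with atorvastatin than with vehicle (median 2.08) and none was called. Their summed level was 13.2 to 4107 TPM with atorvastatin and 7.15 to 1005 TPM with vehicle. The medians of these sums were far below the highest mice, at 22.11 and 13.15 TPM. The part of these shifts in the levels of the 5 RNAs was not tested.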

How the data were processed

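Total RNA of 16 mouse spinal cords was sequenced from stranded libraries (SMARTer Stranded Total RNA-seq Pico kit), in which RNA without a poly(A) tail is kept. Per the labels, the submitters' processing notes name FastQC 0.12.1, Trimmomatic 0.38, STAR 2.5.4b, RSEM 1.3.1 and the build mm10. The authors deposited counts per gene as whole numbers, without normalization, and TPM, normalized for length and library. The step behind the whole-number counts and its strand setting are not given in the sources used here, so reads of Meg3 and Miat and of genes annotated on the opposite strand (Gm26906 and Gm26953, which have no rows) may not have been told apart. Replicates are separate mice per the labels.

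Testing was limited to the 16091 of 24411 genes whose mean TPM passed 1 in any group and was done with edgeR 4.0.16 in R 4.3.3 (TMM on full library totals, a quasi-likelihood test fitted to the pair of groups under comparison, adjusted by Benjamini-Hochberg over all genes). Calls needed a change above 25% and an adjusted p below 0.05 or, between treatments, an unadjusted p below 0.001. Ratios, order, spread and implied length (scaled over 9029 genes with at least 100 counts in every mouse) used exact permutation tests, with a pseudocount of 0.5, in Python 3.11.15 with scipy 1.17.1. Log2 normalized CPM had 0.5 added. Alternatives were DESeq2 1.42.0, its size factors, limma 3.58.1 on log2(TPM + 1) and log2(TPM + 0.001), voom with group quality weights, other gene filters, TMM without the 5 RNAs, all 3 groups in 1 fit, the replicate number as a block and each mouse left out in turn. Others, chosen after seeing the data, were at least 10 counts in every mouse, library totals alone, totals without Rpph1 and, for the gene lists, each Uninjured Control mouse left out. The scripts were tested on simulated data.

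Named genes are the 5 RNAs, the 5 most and 2 least alike by Pearson r over the injured mice, and from each list up to 4 genes: the 2 highest in TPM and the 2 with the smallest p in SCI + Atorvastatin vs. Uninjured Control. Of the genes this rule allows, genes of the lists without a count in either Uninjured Control mouse are not named, and 1 gene among the most like Neat1 is not reported here. The RNAs and lists were chosen with earlier results of these data known. Positions and sequences are from GENCODE vM21 and RefSeq, both on GRCm38. A promoter window of Neat1 was not used here.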

Additional observations from a re-analysis of the deposited data

How the results depend on the processing

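All 5 RNAs were higher than in Uninjured Control mice under each alternative. With vehicle 5 of 5 were called except with voom and group quality weights (0) and the replicate block (1, Neat1), and with atorvastatin 4 or 5 except under the same alternatives (0 and 0), whose cause was not tested. These fits called few genes of any kind: voom 131 and 146 and the replicate block 27 and 0 of 16091. The replicate numbers do not pair the mice: the correlation of same-numbered mice of the SCI groups was -0.225 to 0.137 and 0 of 7 matched their own number best. The block leaves pairs for replicates 1 and 2 only against Uninjured Control mice. Miat with atorvastatin was called under DESeq2, all 3 groups in 1 fit, the filter on 10 counts per mouse, both limma fits on TPM, and with Uninjured Control replicate 2 left out. The median log2 fold change of all genes moved between -0.04 and 0.66 with vehicle and between -0.03 and 0.71 with atorvastatin over the alternatives. Between the treatments 0 of 5 were called under each.

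With 1 mouse left out in turn, calls ranged from 5 to 5 with vehicle, 4 to 5 with atorvastatin and 0 to 0 between treatments. The lone Uninjured Control mouse is then assumed to vary like the injured mice. The ratios past the test ranged from 0 to 0, implied lengths from 0 to 0, steps of the order from 8 to 8, correlated pairs from 9 to 10 (without SCI + Atorvastatin replicate 5, Malat1 with Snhg11 had r = 0.50), and spreads from 0 (each SCI + Vehicle mouse) to 3 (SCI + Atorvastatin replicate 7). Spreads were 2 without SCI + Atorvastatin replicate 1 or 4.

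Signs changed for small differences that had passed no test. Leaving out 1 mouse, the log2 fold change of Meg3 between treatments ranged from -0.187 to 0.0102. The log2 ratio of Neat1 over Malat1 between treatments ranged from -0.0433 to 0.0365, and against Uninjured Control mice that of Meg3 over Malat1 with vehicle from -0.10 to 0.069 (0.05999 from TPM), Miat over Meg3 from -0.43 to 0.75 with vehicle and -0.46 to 0.72 with atorvastatin, and Snhg11 over Meg3 from -0.14 to 0.44 and -0.19 to 0.39, each end set by an Uninjured Control mouse. The spread of Malat1 ranged from -0.0434 to 0.101. Implied length between treatments ranged from -0.00639 to 0.00399 for Malat1, -0.0609 to 0.00165 for Neat1, -0.000972 to 0.0125 for Meg3 and -0.00331 to 0.0042 for Snhg11 (-0.000101 when scaled over genes with at least 500 counts). With 7 against 2 mice the exact tests cannot go below 0.0278.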
